A study of Homo sapiens with 6 samples.

Results

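The genes described here are 4 alkaline phosphatases (ALPP, ALPG, ALPI and ALPL) and 5 enzymes that act on extracellular purines (ADA, ADA2, NT5E, ENTPD1 and ENPP1). They were taken by symbol from a table of 57736 genes, and all 9 were matched by Ensembl identifier. ALPP and ADA2 were picked because they were higher in the NRG1 libraries, and the other genes were added as relatives with earlier results known. The NRG1 against control values of all 9 are therefore given as a description, with no p-value.

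RNA came from AALE cells, a human bronchial basal epithelial line immortalised with SV40 genes and telomerase. In the 3 NRG1 libraries the cells carried a lentiviral vector for overexpression of NRG1, the gene of neuregulin, a ligand of ERBB receptors. In the 3 control libraries they carried a control lentiviral vector. All cells were stable pools grown in small airway medium with no further treatment stated, and polyA RNA was sequenced to ask how NRG1 changes gene expression in airway cells. The sources used here do not give the promoter of the vector, and nothing says that the libraries of a group came from separate cultures, so their spread may be technical.

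Cells release ATP, and a chain of surface enzymes breaks it down outside the cell. ENTPD1 (CD39) removes phosphates from ATP and ADP, ENPP1 splits ATP into AMP and pyrophosphate, and NT5E (CD73) turns AMP into adenosine. Alkaline phosphatases can also remove phosphate from AMP and split pyrophosphate, and ADA and ADA2 convert adenosine to inosine. In the airway, ATP and adenosine act on surface receptors that regulate mucus clearance. ALPP is best known from placenta, ALPG from germ cells and placenta, ALPI from intestine, and ALPL from bone, liver and kidney. NT5E and the alkaline phosphatases are held at the surface by a GPI lipid anchor.

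ALPP, ALPG and ALPI lie next to each other on chromosome 2 in GENCODE 29, with no other protein-coding gene between them. Because of this close kinship their upstream sequences are shown, 250 bases before each RefSeq start on the plus strand of GRCh38.p14. They span chr2:232378501-232378750 for ALPP, chr2:232406594-232406843 for ALPG and chr2:232455903-232456152 for ALPI. Capitals mark every match, on either strand, to 7 motifs searched.
ALPP: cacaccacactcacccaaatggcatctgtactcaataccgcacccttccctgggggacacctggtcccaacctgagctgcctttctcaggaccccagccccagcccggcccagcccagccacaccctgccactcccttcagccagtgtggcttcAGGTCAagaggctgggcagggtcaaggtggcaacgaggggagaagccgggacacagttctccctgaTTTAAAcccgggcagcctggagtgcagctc
ALPG: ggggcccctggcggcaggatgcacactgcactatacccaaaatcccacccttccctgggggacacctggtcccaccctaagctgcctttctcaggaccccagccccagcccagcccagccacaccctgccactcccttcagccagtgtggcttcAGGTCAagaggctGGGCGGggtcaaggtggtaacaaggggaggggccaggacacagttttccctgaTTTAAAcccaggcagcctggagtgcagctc
ALPI: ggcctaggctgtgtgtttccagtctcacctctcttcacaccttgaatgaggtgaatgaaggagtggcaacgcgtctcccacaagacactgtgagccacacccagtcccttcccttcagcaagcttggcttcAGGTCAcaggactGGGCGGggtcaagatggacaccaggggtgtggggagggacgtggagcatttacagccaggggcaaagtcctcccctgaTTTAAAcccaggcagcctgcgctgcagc
The ALPP and ALPG stretches aligned over 229 bases, of which 92.6% were identical, and ALPP and ALPI over 206 bases, of which 68.4% were identical. All 3 held TTTAAA, a motif that resembles the box bound at many core promoters and is present in 11.3% of 35116 upstream windows of this length. All 3 also held AGGTCA, a motif bound by nuclear receptors and present in 12.1% of windows. In ALPP and ALPG both motifs stood at the same distance, at bases -30 to -25 and -96 to -91 from the start. GGGCGG, the GC box present in 42.6% of windows, was in ALPG and ALPI but not in ALPP. None of the 3 windows held TGANTCA (AP-1, 6.57% of windows), TGACGTCA (CRE, 1.65%), CCGGAA (ETS, 14.5%) or TTCNNNGAA (STAT, 6.57%). The motifs did not overlap one another in these windows, and a match is a description of letters only. The GENCODE 29 models of ALPP and ALPI start inside the windows shown, and that of ALPG at the last base of its window.

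Total expected counts per library ran from 8612234 to 10609067 in the NRG1 group and from 9549284 to 13207620 in the control group. NRG1 itself was at 6647, 3854 and 3781 CPM (counts scaled to a common library size, with TMM scaling between libraries) in NRG1 1 to 3, against 11.6, 7.87 and 12.3 CPM in control 1 to 3. The basal markers KRT5 and TP63 were present in every library, at 3141 to 3883 and 169 to 228 CPM in the NRG1 group and at 3302 to 6952 and 158 to 226 CPM in the control group. The 10 basal markers read summed to 6464 to 8196 CPM in NRG1 and to 9648 to 13901 CPM in control. KRT5 and KRT17 made up most of this sum. KRT14 was at 347.6, 87.5 and 93.5 CPM in NRG1 1 to 3, against 1322, 591 and 965 CPM in control 1 to 3. KRT17 (1368 to 1483 against 2596 to 3140 CPM) and NGFR (13.6 to 15.7 against 18.3 to 302 CPM) were likewise lower in every NRG1 library. KRT15 was at 13.4, 80.4 and 79.4 CPM in NRG1 1 to 3, against 16.2, 11.5 and 7.49 CPM in control 1 to 3. KRT5, TP63, ITGA6, ITGB4, DST and LAMA3 overlapped between the groups. The 7 fibroblast markers summed to 20.1 to 28.1 CPM in NRG1 and to 43.1 to 67.9 CPM in control. For 5 endothelial markers the sums were 2.24 to 4.08 CPM in NRG1 and 1.08 to 2.10 CPM in control, with CDH5 at 0 throughout. These endothelial sums rest on few counts, and no gene of that list passed the filter for testing. CLDN5 was at 3.46, 0.187 and 0.434 CPM in NRG1 1 to 3, against 1.37, 0.706 and 0.154 CPM in control 1 to 3. The basal, fibroblast and endothelial sums did not overlap between the groups, and their part in the results was not tested. NRG1 1 and control 3 stood apart from the other libraries. NRG1 2 and NRG1 3 were the closest pair, with a root mean square difference of 0.361 in log2 CPM over all genes tested, and differed from NRG1 1 by 0.799 to 0.806. NRG1 1 was nearer to control 1 and control 2, at 0.68 and 0.727, than to its own group, and NRG1 2 and NRG1 3 were also nearer to those controls, at 0.611 to 0.654, than to NRG1 1. Control 3 differed by 0.803 and 0.814 from the other controls, which differed by 0.506 from each other. For the 6 members tested, and for pathway genes named below whose log2 fold change moves by over 1.5 times, the value without NRG1 1 and control 3 is given as well.

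ALPP, the placental alkaline phosphatase, was low in control cells and several times higher in every NRG1 library. Its expected counts were 68.34, 64 and 43.66 in NRG1 1 to 3, against 8, 5.06 and 5 in control 1 to 3. As levels these were 8.41, 5.98 and 4.78 CPM in NRG1, against 0.645, 0.505 and 0.386 CPM in control. The groups did not overlap: the lowest NRG1 library was 7.41-fold above the highest control. The means were 6.39 ± 1.85 CPM in NRG1 and 0.512 ± 0.13 CPM in control (SD, n = 3 each), a fitted log2 fold change of 3.61 (SE 0.44). In bulk RNA, more cells that express a gene and more RNA per cell cannot be told apart.

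The counts behind ALPP were small, so the control levels were known only within wide limits. Exact Poisson intervals at 95% ran from 3.47 to 6.41 CPM for the lowest NRG1 library, NRG1 3, and from 0.278 to 1.27 CPM for the highest control, control 1. These intervals cover counting error only. Without NRG1 1 and control 3 the log2 fold change of ALPP was 3.19, and leaving out each library in turn gave 3.37 to 3.82.

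ALPG, the germ cell type enzyme, had 1.61, 0 and 2.34 expected counts in NRG1 1 to 3, against 0 in all 3 controls. ALPI, the intestinal enzyme, had 0 in all 6 libraries, where 3 counts would amount to 0.232 to 0.371 CPM. Neither gene reached the filter for testing, and ALPG stayed at or under that limit, so no fold is given.

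The genes of the ALPP cluster share long stretches of sequence, so reads can fit more than 1 of them. In GENCODE 29 the longest coding transcript of ALPP has 2971 bases and aligned to the 2493 bases of ALPG with 91.4% identity, to that of ALPI with 84.3% and to that of ALPL with 60.9%. Of all stretches of 50 bases in the ALPP transcript, 24.5% also occurred in ALPG, 12.6% in the antisense gene AC068134.1 and 1.3% in ALPI. For stretches of 100 bases the shares were 13.2% for ALPG and 7.42% for AC068134.1. The library kit named in the labels does not mark strand, so ALPP and AC068134.1 cannot be told apart over the 631 exon bases that they share. The deposited estimates of these genes were fractional in some libraries, but ALPP, ALPG and AC068134.1 together had whole totals of 72, 64 and 46 in NRG1 1 to 3, against 8, 6 and 5 in control 1 to 3. AC068134.1 took 2.05 of the 72 counts in NRG1 1 and 0.94 of the 6 in control 2, and was at 0 in the other 4 libraries. With ALPP, ALPG and ALPI summed to 1 feature the log2 fold change was 3.64, close to that of ALPP alone.

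ALPL, the tissue-nonspecific enzyme, gave a different picture. It had 3, 24 and 20 expected counts in NRG1 1 to 3, against 5, 4 and 6 in control 1 to 3, and was too low to be tested. The levels were 0.371, 2.24 and 2.17 CPM in NRG1, against 0.403, 0.404 and 0.463 CPM in control. NRG1 2 and NRG1 3 were thus above all controls, while NRG1 1 was lowest, by less than the worth of 1 count, so the groups overlapped. ALPP made up 93.7%, 72.7% and 66.2% of all alkaline phosphatase counts in NRG1 1 to 3, against 61.5%, 55.8% and 45.5% in control 1 to 3. The 4 genes summed to 9.02, 8.22 and 7.16 CPM in the NRG1 libraries, against 1.05, 0.908 and 0.849 CPM in the controls.

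**Figure D1:**
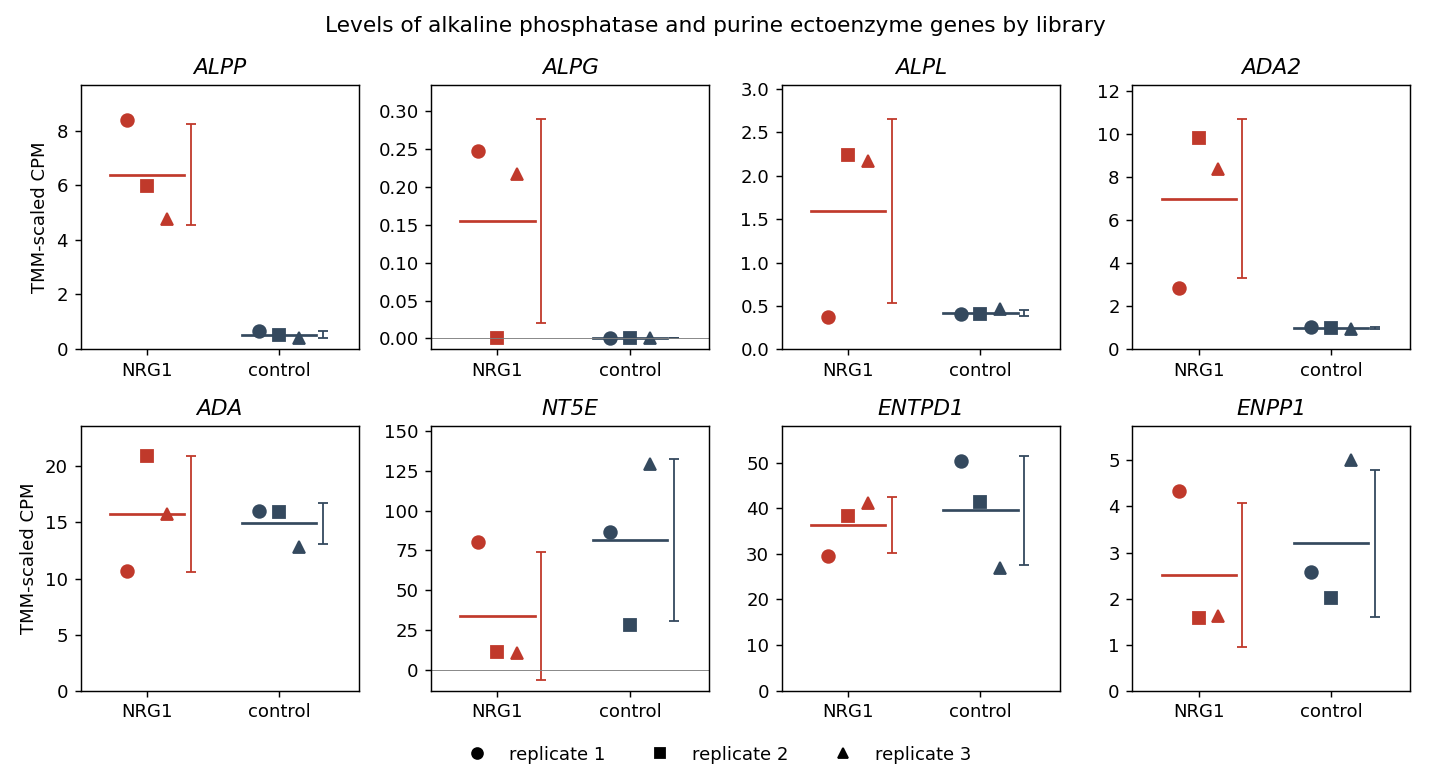
TMM-scaled CPM (y axes, linear, each panel with its own range) of 8 genes in the 3 NRG1 and 3 control libraries; points are libraries, horizontal lines group means and bars SD. ALPP and ADA2 lie above all controls in every NRG1 library, with ADA2 lowest in NRG1 1 at 2.84 CPM; ALPI is left out because it had 0 counts throughout.

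ADA2 is a secreted adenosine deaminase made mainly by myeloid cells. It was higher in all 3 NRG1 libraries, with NRG1 1 well below the other two. Its expected counts were 23, 105 and 77 in NRG1 1 to 3, against 13, 10 and 12 in control 1 to 3. The levels were 2.84, 9.81 and 8.36 CPM in NRG1, against 1.05, 1.01 and 0.926 CPM in control. The lowest NRG1 library was 2.71-fold above the highest control. The means were 7.004 ± 3.68 CPM in NRG1 and 0.994 ± 0.062 CPM in control (SD, n = 3 each), which the fit put at 2.83 on the log2 scale (SE 0.53). For NRG1 1 the exact Poisson interval at 95% was 1.80 to 4.27 CPM, which met that of control 2, 0.484 to 1.86 CPM. Without NRG1 1 the log2 fold change was 3.18, and without NRG1 1 and control 3 it was 3.13.

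Since ADA2 is a myeloid enzyme, markers of monocytes and macrophages were read beside it. The 12 markers summed to 16.3 to 35.5 CPM in the NRG1 libraries and to 25.8 to 36.7 CPM in the controls. CD163, AIF1 and TYROBP were at 0 in all 6 libraries, and the leukocyte gene PTPRC was at 0, 0 and 0 expected counts in NRG1 1 to 3, against 1, 0 and 2 in control 1 to 3. CD14, at 3.21, 6.82 and 5.64 CPM in NRG1 1 to 3 and 4.03, 3.23 and 1.70 CPM in control 1 to 3, was 1 of only 3 tested. CD68, a lysosomal gene that many cell types express, ranged from 3.69 to 24.7 CPM in NRG1 and from 18.9 to 32.0 CPM in control. CSF1R, the third gene tested, ranged from 4.204 to 7.05 CPM in NRG1 and from 2.24 to 7.66 CPM in control. Of the untested markers, ITGAM was at 0.217 to 0.28 CPM in NRG1 and at 0.0772 to 0.161 CPM in control, without overlap but on at most 3 counts a library. MARCO had 2, 10 and 8 expected counts in NRG1 1 to 3, against 1, 2 and 4 in control 1 to 3. The part of such cells in the ADA2 level was not tested. The 12 trophoblast markers, read beside ALPP, summed to 97.9 to 179 CPM in NRG1 and to 79.5 to 116 CPM in control, nearly all of it from PEG10, HLA-G and PAPPA2. The trophoblast hormone genes CGA and CSH1 and the glycoprotein gene PSG3 were at 0 in all 6 libraries. PEG10 was at 170.6, 82.9 and 82.1 CPM in NRG1 1 to 3, against 90.3, 62.7 and 88.4 CPM in control 1 to 3.

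ADA, the mainly cytosolic deaminase that can also sit on the cell surface, did not separate the groups. Its levels were 10.6, 20.9 and 15.7 CPM in NRG1 1 to 3, against 16.04, 15.9 and 12.8 CPM in control 1 to 3. NRG1 1 was the lowest and NRG1 2 the highest of the 6, and the controls lay between them. The means were 15.8 ± 5.15 CPM in NRG1 and 14.9 ± 1.83 CPM in control (SD, n = 3 each). The fitted difference was 0.09 on the log2 scale (SE 0.29), and 0.20 without NRG1 1 and control 3. Within each library, which needs no scaling, there were 26.7, 46.9 and 53.1 ADA2 counts per 100 ADA counts in NRG1 1 to 3. In control 1 to 3 there were 6.53, 6.33 and 7.23. The ratio separated the groups, as ADA2 itself does.

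NT5E varied 12.6-fold over the 6 libraries, with large differences within both groups. NT5E, the GPI-anchored enzyme that makes adenosine from AMP, was at 80.4, 11.03 and 10.3 CPM in NRG1 1 to 3, against 86.5, 27.95 and 129.6 CPM in control 1 to 3. NRG1 2 and NRG1 3 were below all controls, but NRG1 1 lay within the control range. The means were 33.9 ± 40.2 CPM in NRG1 and 81.4 ± 51.0 CPM in control (SD, n = 3 each), so the spread within groups was about as large as the difference between them. The log2 fold change was -1.28 (SE 0.82). It was -2.93 without NRG1 1, -0.85 without either of the other NRG1 libraries, -1.69 without control 2, -0.79 without control 3, and -2.43 without both NRG1 1 and control 3. NRG1 1 and control 3, the libraries that stand apart, therefore pull this value in opposite ways.

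ENTPD1, the enzyme that starts the chain from ATP, was steady by comparison. It was at 29.4, 38.2 and 41.3 CPM in NRG1 1 to 3, against 50.5, 41.4 and 26.8 CPM in control 1 to 3, a 1.88-fold range over the 6 libraries that the groups shared. Its log2 fold change was -0.12 (SE 0.26), and -0.21 without NRG1 1 and control 3. The antisense gene ENTPD1-AS1 overlaps 454 exon bases of ENTPD1 and had 53.2 to 75.3 expected counts in the NRG1 libraries and 84.7 to 139.85 in the controls, so part of either count could belong to the other. NT5E had 274, 28.8 and 24.99 counts per 100 ENTPD1 counts in NRG1 1 to 3, against 171, 67.6 and 484 in control 1 to 3. By this ratio, too, NRG1 1 lay among the controls.

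ENPP1, which makes pyrophosphate, was low in both groups. Its levels were 4.33, 1.59 and 1.63 CPM in NRG1 1 to 3, against 2.58, 2.02 and 5.02 CPM in control 1 to 3. NRG1 2 and NRG1 3 were again the lowest, and NRG1 1 and control 3 the highest. The log2 fold change was -0.42 (SE 0.53), was -1.02 without NRG1 1, and turned to 0.07 without control 3. Without NRG1 1 and control 3 together it was -0.53.

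Of the 9 genes, 6 passed the filter on low counts and 3 (ALPG, ALPI and ALPL) did not. For ALPP and ADA2 every NRG1 library was above every control, as 9.36% of the 15421 genes tested were. For none of the 6 was every NRG1 library below every control, as 10.2% of the genes tested were. The rule picked ALPP and ADA2 on this contrast, so nothing is read from these counts. The median log2 fold change of the 6 was -0.02, beside 0.00034 over all genes tested.

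**Figure D2:**
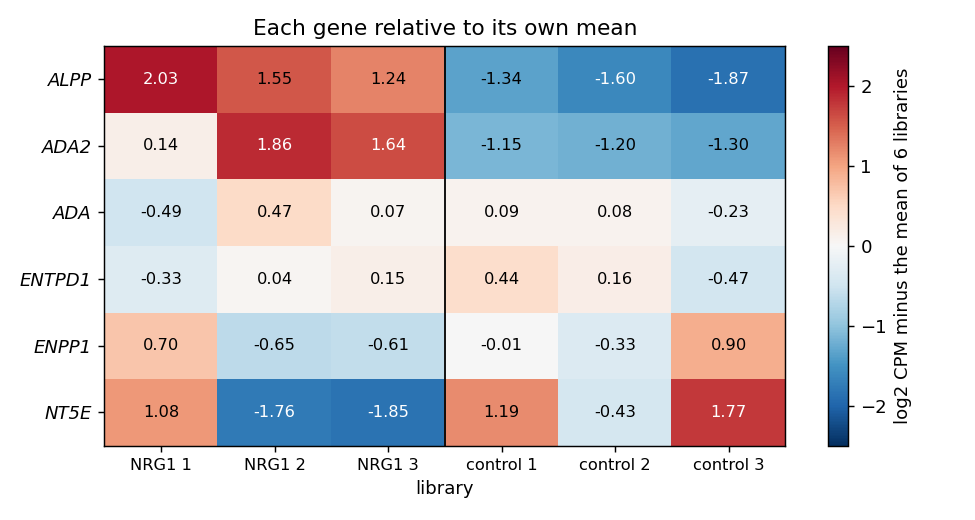
Log2 CPM of the 6 members tested in each library, minus the gene's mean over the 6 libraries, as numbers and colours. ALPP and ADA2 are above their means in the NRG1 libraries, while NT5E and ENPP1 are high in NRG1 1 and control 3 and low in NRG1 2 and NRG1 3. NT5E is high in control 1 as well, and ENPP1 is not.

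The colour map of centred levels shows how the 6 profiles differed over libraries. ALPP and ADA2 were above their means in every NRG1 library, yet they differed in NRG1 1. In that library ALPP was at its highest, 2.03 above its own mean in log2 CPM, and ADA2 was only 0.14 above its mean. Their root mean square difference was 0.851 log2 units, against 2.66 between ALPP and NT5E. ADA and ENTPD1, which varied little, differed by 0.259. ENPP1 differed from ENTPD1 by 0.861, from ADA by 0.875 and from NT5E by 0.924. Its own root mean square about its mean was 0.607, so a gene without variation would be nearer than any of these. These distances therefore do not rank likeness in direction. In NRG1 1 and control 3 ENPP1 and NT5E were both high, while ENTPD1 was below its mean, at -0.33 and -0.47. In control 1 NT5E was high as well, at 1.19, but ENPP1 was close to its mean, at -0.007.

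Over the 14754 other genes with a symbol and a mean of at least 1 CPM, the profile nearest to ADA2 was that of MUC1, a membrane mucin, with a root mean square difference of 0.189 log2 units. ANO1, a chloride channel, followed at 0.259, and SYTL5 at 0.261. MUC1 was at 42.4, 115.6 and 103.5 CPM in NRG1 1 to 3, against 15.1, 16.05 and 10.3 CPM in control 1 to 3, so that it too was lowest among NRG1 libraries in NRG1 1. The nearest to ALPP were PHACTR3 at 0.456, NGB, the oxygen-binding protein neuroglobin, at 0.523, and GALNT5, an enzyme that starts O-glycans, at 0.619. PHACTR3 was at 49.4, 23.3 and 24.97 CPM in NRG1 1 to 3, against 8.06, 5.25 and 4.25 CPM in control 1 to 3. Nearest to NT5E were PHLDA1-AS1 at 0.27, SLITRK6 at 0.291 and the matrix glycoprotein gene THBS1 at 0.324. THBS1 was at 782, 90.5 and 90.2 CPM in NRG1 1 to 3, against 585, 201 and 622 CPM in control 1 to 3. Nearest to ENPP1 were ARHGAP29 at 0.118, SNAPC1 at 0.145 and DBF4 at 0.146. For ADA they were TMEM44 at 0.069, PEX6 at 0.082 and GGT1 at 0.09, and for ENTPD1 the cytokine gene IL1B at 0.084, C1orf21 at 0.093 and ZHX3 at 0.093. The median over the genes compared was 1.36 for ADA2, 1.66 for ALPP and 1.46 for NT5E. For ENPP1, ADA and ENTPD1 it was 0.668, 0.444 and 0.449. The first 3 medians lie close to the member's own root mean square about its mean (1.33, 1.63 and 1.44). Distances thus scale with how much a member varies and are not compared between members. These likenesses rest on 6 libraries only.

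Levels can be compared between genes per kilobase of exon, here with the exon lengths of GENCODE 29. On that scale NT5E led in both groups, at 7.48 ± 8.88 CPM per kb in NRG1 and 17.95 ± 11.3 CPM per kb in control (SD, n = 3 each). In the NRG1 libraries ADA at 5.53 ± 1.81 and ENTPD1 at 5.20 ± 0.881 CPM per kb came next, and these 3 did not differ beyond their spread. The NRG1 mean of NT5E rested on NRG1 1, at 17.7 CPM per kb, since NRG1 2 and NRG1 3 had 2.43 and 2.28 CPM per kb, below ADA and ENTPD1 in the same libraries. ALPP followed at 2.09 ± 0.604, then ADA2 at 0.805 ± 0.422, ALPL at 0.53 ± 0.353, ENPP1 at 0.252 ± 0.158 and ALPG at 0.0621 ± 0.0541 CPM per kb. Mean ± SD overlapped between ADA2, ALPL and ENPP1, and between ENPP1 and ALPG, so the order of these neighbours is not set by the means. In the control libraries ENTPD1 was at 5.67 ± 1.71 and ADA at 5.24 ± 0.643 CPM per kb, again within their spread. The others were ENPP1 at 0.322 ± 0.16, ALPP at 0.167 ± 0.0424, ALPL at 0.141 ± 0.0115 and ADA2 at 0.114 ± 0.00712 CPM per kb, with ALPG and ALPI at 0. NT5E and ENTPD1, ENPP1 and ALPP, and ALPP and ALPL lay within each other's spread there, while ALPL and ADA2 did not by SD. However, ALPL rested on 5, 4 and 6 counts in control 1 to 3. Its exact Poisson interval at 95% was 0.11 to 1.03 CPM in control 2, far wider than that SD. The order of ALPL and ADA2 is therefore not set either. ALPP thus had rank 4 of the 9 genes in NRG1 and rank 5 in control, and ADA2 rank 5 in NRG1 and rank 7 in control. Longest coding transcripts in place of all exons would raise ADA to 10.2 and 9.70 CPM per kb in NRG1 and control, above ENTPD1 at 7.20 and 7.84. In NRG1, ADA would then also pass NT5E, at 8.65 CPM per kb. In control, ADA2 at 0.24 would pass ALPP at 0.172 and ALPL at 0.164 CPM per kb. These orders, and the control ranks of ALPP and ADA2, therefore depend on the length used. In NRG1, ALPP at 2.15 and ADA2 at 1.69 CPM per kb would keep their ranks by the means but lie within each other's spread. On that length their order in NRG1 is not set.

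**Figure D3:**
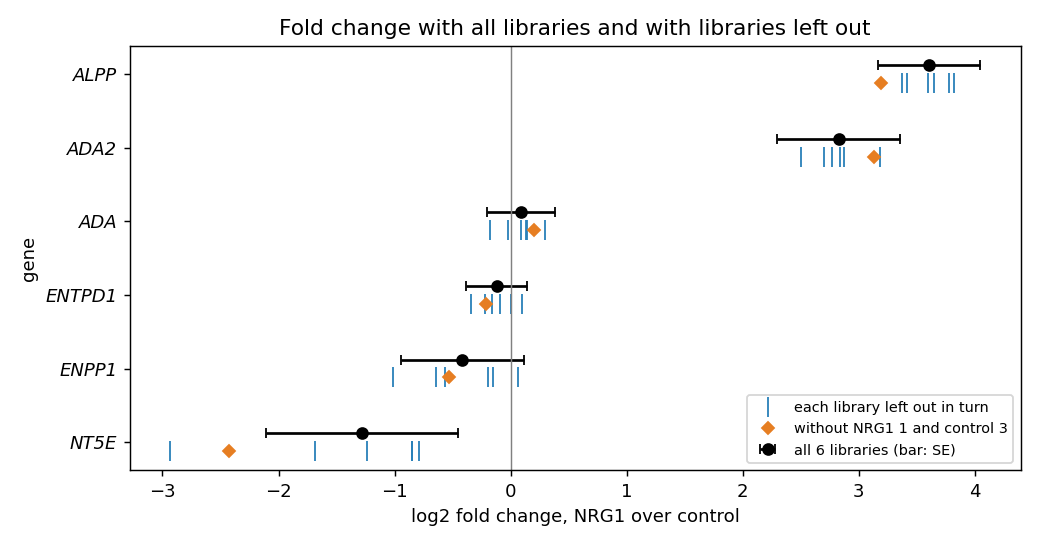
Fitted log2 fold changes (x axis, NRG1 over control) of the 6 members tested, with all 6 libraries (circles, bars SE), with each library left out in turn (ticks) and without NRG1 1 and control 3 (diamonds). ALPP and ADA2 stay between 2.501 and 3.82, NT5E spreads from -2.93 to -0.79, and ADA, ENTPD1 and ENPP1 fall on both sides of 0.

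The wider purine pathway was read in 5 lists of 107 genes that hold no member, of which 81 were tested. Tested in edgeR across all genes (quasi-likelihood, Benjamini-Hochberg adjusted p under 0.05), 0 of the 81 passed, beside 0.00648% of all genes tested, which is NRG1 alone. At an unadjusted p under 0.05 there were 2 higher and 4 lower, together 6 of 81, where 11.8% of all genes were. DESeq2 called 1 of the 81, DPP4, and 1.36% of all genes. The median log2 fold change of the 81 was -0.03, with 39 above 0 and 42 below. There were 7 genes with all NRG1 libraries above all controls and 5 with all below, where 9.36% and 10.2% of the genes tested were.

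DPP4 (CD26), the surface protein that binds ADA, was in the list of transporters and release channels. It was at 3.34, 6.26 and 8.14 CPM in NRG1 1 to 3, against 2.02, 1.82 and 0.926 CPM in control 1 to 3. All NRG1 libraries were above all controls. The log2 fold change was 1.92 (SE 0.46). DESeq2 called it (adjusted p = 0.0331) and edgeR did not (adjusted p = 0.285). Without NRG1 1 and control 3, edgeR gave an adjusted p of 0.0118, in a comparison that called 9.82% of all genes. Among the other 11 genes of that list tested, the phosphate carrier SLC20A2 was at 71.7, 70.0 and 70.6 CPM in NRG1 1 to 3, against 82.7, 84.9 and 176.6 CPM in control 1 to 3 (adjusted p = 0.415 in edgeR). For SLC20A2 the log2 fold change was -0.70 (SE 0.29), and -0.25 without NRG1 1 and control 3. SLC20A1, the other phosphate carrier of that family, was at 166.8, 117 and 123.2 CPM in NRG1 1 to 3, against 130.02, 120.4 and 408 CPM in control 1 to 3, so that control 3 alone stood high. Its log2 fold change was -0.70 (SE 0.45), and -0.06 without NRG1 1 and control 3. The nucleoside carrier SLC29A1 had one of -0.28 (SE 0.20) and the lysosomal nucleoside carrier SLC29A3 one of 0.48 (SE 0.27). None of the 12 passed edgeR, and 3 had a log2 fold change above 0.

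The list of other ectonucleotidases and their relatives had 14 genes tested, 6 above 0 and 8 below, with a median log2 fold change of -0.05 and 0 called by edgeR or DESeq2. ENPP2 (autotaxin), which makes the signalling lipid lysophosphatidic acid, was at 0.371, 0.561 and 0.109 CPM in NRG1 1 to 3, against 1.61, 1.41 and 2.01 CPM in control 1 to 3. Its groups did not overlap, but edgeR did not call it (adjusted p = 0.282) at a log2 fold change of -2.21 (SE 0.54). The expected counts of ENPP2 were 3, 6 and 1 in NRG1 1 to 3, against 20, 14 and 26 in control 1 to 3. ENPP2 passed the filter on low counts only through the controls, where it is high, so nothing is read from this gap. ENTPD2, which converts ATP to ADP, was at 5.69, 11.8 and 10.3 CPM in NRG1 1 to 3, against 13.2, 19.3 and 18.4 CPM in control 1 to 3 (adjusted p = 0.386 in edgeR). The log2 fold change of ENTPD2 was -0.86 (SE 0.32), and -0.55 without NRG1 1 and control 3. ENTPD7 was at 14.7, 13.5 and 16.8 CPM in NRG1 1 to 3, against 24.5, 14.3 and 42.2 CPM in control 1 to 3, with a log2 fold change of -0.86 (SE 0.38) that was -0.37 without NRG1 1 and control 3. BST1 had one of -1.15 (SE 0.54), and CANT1 one of -0.28 (SE 0.20) that was -0.16 without these libraries.

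Of the receptors for ATP and adenosine, 7 of 19 listed genes were expressed enough to be tested. P2RY2, the airway receptor for ATP and UTP, was at 16.8, 26.9 and 25.6 CPM in NRG1 1 to 3, against 18.8, 13.2 and 10.7 CPM in control 1 to 3. NRG1 1 lay inside the control range, and the adjusted p was 0.415 in edgeR (log2 fold change 0.70, SE 0.30). The ion channel P2RX4 had a log2 fold change of -0.41 (SE 0.28), the receptor P2RY11 one of -0.35 (SE 0.31), and the channels P2RX6 and P2RX5 ones of -0.66 (SE 0.79) and 0.21 (SE 0.30). Without NRG1 1 and control 3, P2RY11 was at -0.61 and P2RX6 at -1.28. The list's median log2 fold change was -0.06, and neither edgeR nor DESeq2 called a member.

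Genes of purine salvage inside the cell (21 tested, 11 above 0 and 10 below) had a median log2 fold change of 0.03. PNP, which splits inosine, the product of both deaminases, was at 64.3, 53.8 and 50.9 CPM in NRG1 1 to 3, against 88.2, 56.4 and 99.4 CPM in control 1 to 3 (adjusted p = 0.424 in edgeR). AK4, a mitochondrial adenylate kinase, was at 119.8, 107.6 and 108.9 CPM in NRG1 1 to 3, against 96.6, 77.7 and 41.4 CPM in control 1 to 3 (adjusted p = 0.425 in edgeR). NT5C3A, a cytosolic nucleotidase, had a log2 fold change of -0.62 (SE 0.32), ADAL, a deaminase related to ADA, one of 0.36 (SE 0.21), and the AMP deaminase AMPD2 one of -0.33 (SE 0.19). Without NRG1 1 and control 3, AMPD2 was at -0.16, and AK4 at 0.31 beside 0.64 (SE 0.28) with all libraries. GPI anchor assembly genes (27 tested, 16 above 0 and 11 below) had a median of 0.06. The anchor remodelling genes PGAP1 and PGAP3 were at 0.51 (SE 0.24) and 0.58 (SE 0.29) in log2 fold change. Of the assembly genes named by rule, PIGM was at 0.40 (SE 0.21), PIGF at 0.41 (SE 0.24) and PIGX at 0.37 (SE 0.22) on the same scale, and PIGX was at 0.14 without NRG1 1 and control 3. Neither tool called a gene of these last 2 lists.

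**Figure D4:**
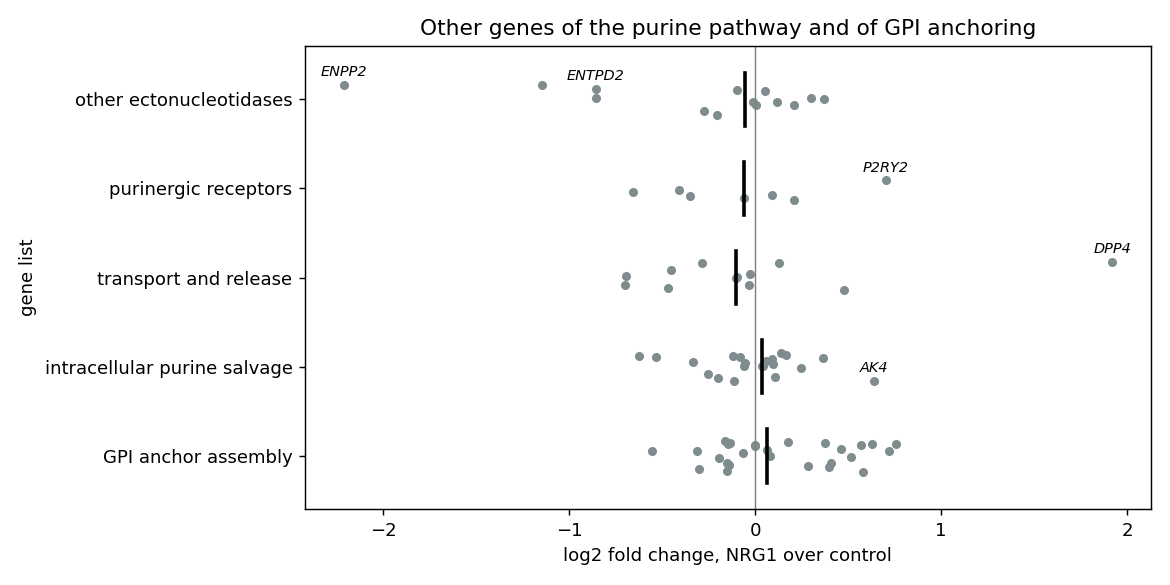
Log2 fold changes (x axis, NRG1 over control) of the 81 tested genes in the 5 lists, each gene a point, spread up and down for legibility only, with the list median as a vertical line. The medians lie between -0.10 and 0.06, with DPP4 at 1.92 and ENPP2 at -2.21 farthest from 0. ENPP2 had only 3, 6 and 1 expected counts in NRG1 1 to 3.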

How the data were processed

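Sample titles gave the groups and the replicate numbers. The deposited table of expected counts per gene was not normalized, per its values. Per the submitters' processing notes, the hg19 build and the tools RSEM 1.3.0, STAR 2.5.3a, MultiQC 0.9 and FastQC 0.11.3 were used, with no roles stated; an annotation is not named in the sources used here. A second deposited table held log2 CPM of 14759 genes, 6 of the members among them, per its name and values.

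The expected counts, rounded to whole numbers, were fitted in edgeR 4.0.16 under R 4.3.3 (filterByExpr, TMM scaling, quasi-likelihood fit of NRG1 against control without covariates), with Benjamini-Hochberg adjustment over 15421 genes and a threshold of 0.05. SE is the absolute log2 fold change over the square root of F. Profiles over libraries are log2 CPM (prior count 2), and likeness is the root mean square difference of profiles centred on their mean. At 10 CPM a gene had 80.9 to 129.5 counts per library. The fits were tested on simulated data.

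Symbols came from a name table, for 51959 of 57736 identifiers. Exon lengths, neighbours and transcripts came from GENCODE 29, and upstream sequences from RefSeq (GRCh38.p14), which held 8 of the 9 members; ADA2 was without an entry. The members and the gene lists were chosen with earlier results of these data known. Genes named were the 9 members, NRG1, the 5 tested genes with the smallest p of each list and the 3 nearest profiles of each member, besides genes that mark a cell type or lie beside or overlap a member, and 3 adenosine and ATP receptor genes chosen after their values were seen. Alternatives were DESeq2 1.42.0 (15 adjusted p-values undefined, counted as not called), upper-quartile scaling, library totals alone, other count filters, limma 3.58.1 (voom on unrounded counts, and trend on the deposited log2 values), the replicate number as a block, libraries left out, and the ALPP cluster summed.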

Additional observations from a re-analysis of the deposited data

How the results depend on the processing

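Over all genes, 1 gene passed the main edgeR test, against 209 with DESeq2, 21 with no low-count filter, 2 with limma-voom on unrounded counts, 2 with the replicate number as a block, and 1515 without NRG1 1 and control 3. Leaving out each library in turn gave 1 to 37, with 37 without NRG1 1. The 2 against 2 fit leaves out the libraries that stood apart, so its spread within groups is smaller by construction. Among the 81 pathway genes the count of 0 became 1 with DESeq2 and 1 without NRG1 1 and control 3, DPP4 in both. The cause of these differences was not tested.

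ALPP and ADA2 kept a positive log2 fold change in all 16 alternatives (3.19 to 3.82 and 2.501 to 3.18), and NT5E a negative one (-2.93 to -0.79). The sign for ALPP and ADA2 was fixed beforehand, since both were picked on this contrast with every NRG1 library above every control. Nothing is therefore read from that sign. ADA turned negative in 2 of 16, without NRG1 2 (-0.17) and without control 3 (-0.02). ENTPD1 turned positive in 2, without control 1 (0.10) and without NRG1 1 (0.01), and ENPP1 in 1, without control 3 (0.07). The median of the 6 members changed sign in 5 of 16, between -0.16 and 0.15. Deviations from the group means correlated at 0.02, 0.12 and -0.08 between same-numbered NRG1 and control libraries, and at 0.11 between NRG1 1 and control 3. With 3 libraries per group, such correlations cannot show whether the numbers pair the libraries, and the main fit used no pairing. Depth limits ALPG, ALPI and ALPL, which had at most 24 counts in a library.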

Other observations

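Neighbouring genes of ALPP and ADA2 were read for comparison. DIS3L2, the nearest protein-coding gene before ALPP, had a log2 fold change of 0.04 (SE 0.25; adjusted p = 0.96 in edgeR), and ECEL1, the first beyond ALPI, had 0 counts in all 6 libraries. HDHD5 next to ADA2 had a log2 fold change of -0.08 (SE 0.16; adjusted p = 0.865 in edgeR), and CECR2 on the other side had 0, 1 and 0 expected counts in NRG1 1 to 3, against 0 in all 3 controls.

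Among pathway genes too low to be tested, P2RX7, an ATP-gated channel chosen after its values were seen, had 0, 5 and 4 expected counts in NRG1 1 to 3, against 12, 12 and 12 in control 1 to 3. The adenosine receptor gene ADORA2A, also chosen after its values were seen, had 5, 5.37 and 1.65 expected counts in NRG1 1 to 3, against 10.34, 6 and 37.84 in control 1 to 3. ADORA2B, an adenosine receptor of airway cells likewise chosen, was tested. It had a log2 fold change of 0.09 (SE 0.24), which turned to -0.17 without NRG1 1 and control 3.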
